A study of Homo sapiens with 12 samples.

Results

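TGFBI, SLPI, PRAME, LUM and VAMP8 are 5 genes whose RNA level differed many times over between 4 related thyroid carcinoma cell lines. They were picked by name, from earlier results on these same libraries, as genes that switch in single clones, and they make up 5 of the 58302 genes listed and 5 of the 16027 genes tested. Their differences between lines are therefore a description and carry no test. RNA-seq was performed on 3 libraries each of TPC1, a human papillary thyroid carcinoma line that is wild type for DICER1, and of D11, WB1 and TD5. These 3 lines are labelled DICER (+/-), and each was established from TPC1 after transient transfection of a CRISPR/Cas9 plasmid directed at exon 11 of DICER1. All 4 lines were grown in the same serum-supplemented RPMI medium, and no other agent was given. Each DICER (+/-) line is 1 clone, so the genotype and whatever else sets a clone apart cannot be told apart. The question behind the design was what partial loss of DICER1, the RNase that cuts microRNA precursors, does to the transcriptome.

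The 5 genes belong to different systems. TGFBI encodes a secreted matrix protein with fasciclin domains, which is induced by TGF-beta and binds collagens and integrins. SLPI encodes a secreted WAP-domain protein that inhibits neutrophil elastase and cathepsin G on mucosal surfaces. PRAME is a cancer-testis antigen, silent in most adult tissues but expressed in many tumours, whose protein can serve as the substrate receptor of a cullin-2 ubiquitin ligase and has been described as a repressor of retinoic acid receptor signalling. LUM encodes lumican, a small leucine-rich proteoglycan that carries keratan sulfate and spaces collagen fibrils in cornea, skin and tendon. VAMP8 encodes an R-SNARE of late endosomes and secretory granules, which works in granule release and in the fusion of autophagosomes with lysosomes.

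The genes lie on 5 different chromosomes of GRCh38. TGFBI (ENSG00000120708) spans chr5:136028988-136063818 on the forward strand, with 17 exons in its main transcript. SLPI (ENSG00000124107) spans chr20:45252239-45254564 on the reverse strand and has 4 exons. PRAME (ENSG00000185686) lies at chr22:22547701-22559361 on the reverse strand, with 6 exons, inside the immunoglobulin lambda region. LUM (ENSG00000139329) lies at chr12:91102629-91111494 on the reverse strand and has 3 exons. VAMP8 (ENSG00000118640) has a gene model at chr2:85561562-85582031 on the forward strand, and its main transcript of 3 exons begins at 85577586. PRAME overlaps a noncoding gene model on the other strand, which never exceeded 2 scaled reads in any library, and VAMP8 overlaps RN7SL126P, which was at 0 in all libraries. The libraries were stranded.

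PRAME is known for control through CpG methylation of its promoter, and methylation acts on the CpG dinucleotides that a promoter holds, so the 200 bases upstream of the annotated start are shown for the 3 genes with a matching RefSeq entry. They are written 5′ to 3′ on the strand of the gene from GRCh38.p14, and the capitals mark CG. The windows are chr5:136028788-136028987 for TGFBI, chr22:22559266-22559465 for PRAME and chr2:85577386-85577585 for VAMP8. SLPI and LUM had no entry at the start used here.
TGFBI: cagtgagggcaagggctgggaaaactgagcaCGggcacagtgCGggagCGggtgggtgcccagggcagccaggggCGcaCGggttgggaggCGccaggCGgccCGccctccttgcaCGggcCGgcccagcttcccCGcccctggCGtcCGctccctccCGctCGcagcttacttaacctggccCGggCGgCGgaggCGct
PRAME: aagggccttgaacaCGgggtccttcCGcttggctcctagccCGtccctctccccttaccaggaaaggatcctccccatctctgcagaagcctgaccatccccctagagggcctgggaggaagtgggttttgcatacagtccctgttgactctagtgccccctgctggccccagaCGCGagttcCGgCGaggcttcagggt
VAMP8: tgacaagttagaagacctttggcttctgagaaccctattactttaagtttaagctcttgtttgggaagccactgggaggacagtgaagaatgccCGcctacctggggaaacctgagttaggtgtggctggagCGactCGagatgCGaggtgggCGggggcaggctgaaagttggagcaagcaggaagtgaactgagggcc
The TGFBI window held 19 CpG and 75% G or C, and 26.9% of 35116 RefSeq promoter windows of the same length held as many CpG. The PRAME window held 7 CpG and 62% G or C, and 46.9% of all windows held as few. The VAMP8 window held 5 CpG and 53.5% G or C, and 41.4% of windows held as few. The median window held 9, so TGFBI lay above it and PRAME and VAMP8 below it. DNA methylation was not measured in these libraries.

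Values are scaled reads: reads per gene brought by the authors to a total of 20000000 aligned reads per library and rounded up. The reads behind each library were estimated from the gaps that scaling leaves between whole numbers, at 12700000 to 21020000, and 3 reads, taken as the detection floor, were worth 2.85 to 4.72 of these units. Floors and counting intervals cover counting error only. For DICER1 itself TPC1 gave 1360, 1129 and 1101 scaled reads, D11 gave 977, 1051 and 1093, WB1 gave 881, 939 and 815, and TD5 gave 643, 627 and 809. Against TPC1 its log2 fold change was -0.19 in D11 (limma adjusted p = 0.138), -0.43 in WB1 (limma adjusted p = 0.00404) and -0.77 in TD5 (limma adjusted p = 9.02e-05), which passed both the p and the 1.5-fold threshold only in TD5. These reads do not separate the edited from the intact allele. Of the thyrocyte markers, NKX2-1, TSHR and SLC5A5 were at 0 in all 12 libraries and PAX8 reached a mean of 7800 in TPC1. FOXE1 was at means of 294 in TPC1, 143 in D11, 132 in WB1 and 117 in TD5. The summed thyrocyte markers ranged from 382 to 506 per 1000000 and the epithelial ones from 844 to 1220, with EPCAM and CDH1 at or near the floor. Summed fibroblast markers were at 5.95 to 17.1 per 1000000 with DCN and POSTN at 0 in every library, leukocyte markers at 0.15 to 0.55, endothelial markers at 0.799 to 1.70, and melanocyte markers at 21.6 to 30.1, with TYR at 0. Other markers of these lists were read. In TPC1, D11, WB1 and TD5 the fibroblast marker PDGFRB was at means of 160, 109, 47.0 and 150 scaled reads. COL1A1 was at 84.3, 77.7, 78.7 and 53.3. The melanocyte markers PMEL and MITF were at 325, 330, 292 and 301 and at 193, 165, 149 and 178. The part of other cell types in the results was not tested. In bulk RNA, fewer expressing cells and less RNA per expressing cell cannot be told apart.

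TGFBI was nearly shut down in D11 and abundant in the other lines. It was at 2113, 2130 and 2099 scaled reads in TPC1, at 150, 137 and 123 in D11, at 2268, 2065 and 2389 in WB1, and at 1805, 1704 and 1790 in TD5. The 3 D11 libraries lay far below all others, whose lowest value was 11.4 times the highest D11 value, while WB1 overlapped TPC1 and TD5 sat just under both. The mean fell from 2114 ± 15.5 (SD, n = 3) in TPC1 to 137 ± 13.5 in D11, which is 15.5-fold lower and leaves 6.46% of the TPC1 level. The mean was 2241 ± 164 in WB1 and 1766 ± 54.5 in TD5. TD5 held 83.5% of the TPC1 level, and its libraries did not overlap those of TPC1. The D11 level was not at the floor, since about 325 reads lay behind it.

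SLPI showed the same D11 loss at a lower level. It was at 371, 357 and 440 scaled reads in TPC1, at 11, 16 and 13 in D11, at 497, 442 and 483 in WB1, and at 382, 361 and 331 in TD5. D11 again stood apart from every other library, and the lowest of the others was 20.7 times the highest D11 value. TPC1 averaged 389 ± 44.4 (SD, n = 3) and D11 13.3 ± 2.52, which was 29.2-fold lower, with 3.42% of the TPC1 level left. In D11 about 31 reads in total carried this value. The WB1 mean of 474 ± 28.6 was 1.22-fold that of TPC1, with the lowest WB1 library at 442 and the highest TPC1 library at 440, so these lines were separated by less than the spread within either. TD5, at 358 ± 25.6, overlapped TPC1.

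**Figure D1:**
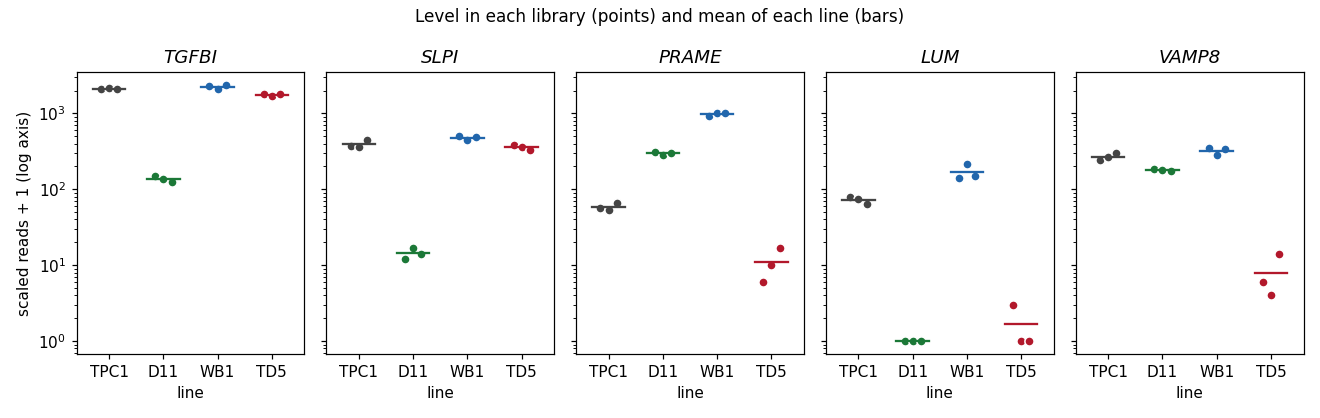
Scaled reads plus 1 on a log axis for the 5 genes in each of the 12 libraries, with lines on the horizontal axis; points are libraries and horizontal bars are the means of 3. D11 lies apart for TGFBI and SLPI and TD5 for VAMP8, LUM is at 0 in D11 and has 1 library above 0 in TD5, and PRAME takes 4 separate levels.

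PRAME did not follow a switch in 1 clone: it took a different level in each of the 4 lines. It was at 55, 53 and 65 scaled reads in TPC1, at 311, 282 and 296 in D11, at 921, 1017 and 1012 in WB1, and at 5, 9 and 16 in TD5. No library of any line overlapped those of another, with WB1 highest, then D11, then TPC1, and TD5 lowest. The mean of 57.7 ± 6.43 (SD, n = 3) in TPC1 compared with 983 ± 54 in WB1, a 17.1-fold higher level. D11, at 296 ± 14.5, was 5.14-fold above TPC1, and WB1 was 3.32-fold above D11. TD5, at 10.0 ± 5.57, was 5.77-fold below TPC1 and 98.3-fold below WB1. About 21 reads lay behind the TD5 value, and its SD was 55.7% of its mean. Thus 2 clones lay above the parental line and 1 below it.

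LUM was lost in 2 of the 3 clones and raised in the other, so the description of a gene switched in a single clone does not hold for it either. It was at 78, 73 and 63 scaled reads in TPC1, at 0 in all 3 D11 libraries, at 138, 212 and 148 in WB1, and at 2, 0 and 0 in TD5. WB1 lay above TPC1 without overlap, and D11 and TD5 were at or under the floor, where no order between them can be given. TPC1 averaged 71.3 ± 7.64 (SD, n = 3) and WB1 166 ± 40.2, which was 2.33-fold higher, and the WB1 spread came from a single library at 212. Against a floor of 3 reads per library, D11 was at least 17.3-fold lower than TPC1 and at least 40.3-fold lower than WB1. In TD5 an estimated 1 read was found against 186 in TPC1, which after correction for depth is a ratio of 153 with a 95% exact counting interval of 27.2 to 6090. The same ratio for WB1, with 418 reads, was 353 (62.9 to 14000).

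VAMP8 was far lower in TD5 than in the other lines. It was at 239, 264 and 297 scaled reads in TPC1, at 182, 179 and 174 in D11, at 344, 281 and 341 in WB1, and at 5, 3 and 13 in TD5. The TD5 libraries stood apart from all others, the lowest of which was 13.4 times the highest TD5 value. TPC1 averaged 267 ± 29.1 (SD, n = 3) and TD5 7 ± 5.29, which was 38.1-fold lower, with about 15 reads in total. D11, at 178 ± 4.04, held 66.9% of the TPC1 level without overlap and 25.5-fold above TD5. WB1, at 322 ± 35.5, overlapped TPC1.

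The lines ranked differently for different genes. TGFBI, SLPI and LUM shared the order WB1, TPC1, TD5, D11, from highest to lowest mean, although for LUM the last 2 were both at the floor. VAMP8 was ordered WB1, TPC1, D11, TD5 and PRAME WB1, D11, TPC1, TD5. WB1 had the highest mean for 5 of 5 genes, while D11 was lowest for 3 and TD5 for 2. The neighbouring means in these orders that overlapped were WB1 and TPC1 for TGFBI and VAMP8, TPC1 and TD5 for SLPI, and TD5 and D11 for LUM. The DICER1 means were ordered TPC1, D11, WB1, TD5, which 0 of the 5 genes shared. How often each order occurs over all tested genes was not counted, so nothing is read from these counts. A relation of the 5 genes to the DICER1 level was not tested.

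Per kilobase of transcript the genes started from unequal levels. In TPC1, TGFBI was at 38.95 per 1000000 per kb, above 84.5% of the 15879 tested genes with a transcript length, SLPI at 32.6 (81.7%) and VAMP8 at 19.6 (72.0%). LUM, at 1.33 (15.2%), and PRAME, at 1.25 (14.4%), were among the weakly expressed genes of the parental line. In WB1 the PRAME level of 21.3 per 1000000 per kb was above 73.3% of genes, and LUM at 3.10 stayed above 26.6% only. In D11 the level of TGFBI was 2.52 (23.1%) and that of SLPI 1.12 (11.9%), and in TD5 that of VAMP8 was 0.515 (5.67%) and that of PRAME 0.217 (1.70%).

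How common such patterns are was counted over all 16027 tested genes. Calls rested on limma, with a false discovery rate (Benjamini-Hochberg) below 0.05 and a minimum change of 1.5-fold. D11 differed from TPC1 in 775 genes (4.84%), 463 higher and 312 lower. WB1 did so in 799 (4.99%), 544 higher and 255 lower, and TD5 in 417 (2.6%), 179 higher and 238 lower. By the adjusted p alone, without the minimum fold, 5329 genes differed in D11, 4956 in WB1 and 1906 in TD5. The share of all genes at an unadjusted p under 0.05 was not counted. Nothing is therefore read from counts at that threshold in the sets below, and the shares of called genes are no background for them. A line was counted as set apart in a gene called in the same direction against each of the other 3 lines. TPC1 was set apart in 92 genes (0.574%), D11 in 128 (0.799%), WB1 in 59 (0.368%) and TD5 in 60 (0.374%). TGFBI and SLPI were among those of D11, PRAME and LUM among those of WB1, and PRAME and VAMP8 among those of TD5. Because the genes were picked for such values, nothing is read from these counts.

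Under a stricter definition a line lay at least 5-fold outside every library of the other 3, with at least 50 scaled reads on the higher side and values under the floor set to it. D11 lay below in 11 genes (0.0686%) and above in 1 (0.00624%), TPC1 above in 4 (0.025%), and TD5 below in 1 (0.00624%), which was VAMP8. WB1 gave 0 such genes in either direction. SLPI was second and TGFBI ninth among the 11 D11 genes by the gap between the line and the nearest library. PRAME and LUM met the definition for 0 lines: PRAME levels were graded, and 2 clones shared the loss of LUM. The other D11 genes, named after their values were seen, included HTATIP2, with the largest gap of 21.8-fold, TRIM61, MYD88, STK33, VILL and FGB. Among the 11 genes lower in D11, VILL and MYD88 lie 131 kb apart, and the other placed pairs on a shared chromosome are at least 10400 kb apart. Of the 4 genes higher in TPC1, EMC10 and AC020909.3 lie 0 kb apart on chromosome 19. TENM2, the gene higher in D11, lies 30900 kb from TGFBI on the same chromosome and was at 101, 120 and 129 scaled reads in D11 against 6, 6 and 6 in TPC1.

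The genes with the most similar profiles were taken by Pearson correlation over the 12 libraries on log2(value per 1000000 + 1). These coefficients mostly follow the 4 line means, since libraries of a line share its level, and are given without a test. TGFBI and SLPI were most like each other (r = 0.996). VILL, a villin-like actin-binding gene, followed TGFBI (r = 0.994), as did MYD88, the adaptor of Toll-like and interleukin-1 receptors (r = 0.994), which reached 0.996 with SLPI, as did TRIM61. MYD88 was at 278 ± 10.8 in TPC1 and 8.33 ± 4.16 in D11 (SD, n = 3). The most opposite gene was TENM2, a teneurin adhesion receptor, with r = -0.991 for TGFBI and -0.992 for SLPI, followed by PSMD5 (-0.958 and -0.963) and STMN3 (-0.951 and -0.957). PSMD5, a proteasome assembly chaperone, spanned only 2597 to 3393 scaled reads between TPC1 and D11, so a strong correlation can rest on a small change.

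PRAME was mirrored by SFMBT2, which encodes a Polycomb-associated MBT-domain protein (r = -0.978). SFMBT2 was at a mean of 56.0 scaled reads in TPC1, 21.0 in D11, 5.00 in WB1 and 140 in TD5, the reverse of the PRAME order in all 4 lines. It was picked as the gene most opposite to PRAME, so the reversed order largely follows from that choice. How many genes show this order was not counted. SPDEF (r = -0.962) and PALM (r = -0.944) also opposed PRAME. The genes most like PRAME were SPIRE1 (r = 0.961), AC007780.1 (r = 0.955) and BTBD11 (r = 0.949), and they covered a much smaller range, with SPIRE1 at 1169 in TPC1 and 1393 in WB1.

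LUM was matched by genes that were also lower in the clones where LUM was lost. CYP2J2, an arachidonic acid epoxygenase (r = 0.976), was at means of 21.0, 5.67, 24.7 and 5.00 scaled reads in TPC1, D11, WB1 and TD5. ASS1, the urea cycle enzyme argininosuccinate synthase (r = 0.964), was at 37.0, 4.67, 84.0 and 8.33. The ASS1 libraries of D11 were at 2, 3 and 9 and the CYP2J2 libraries of TD5 at 7, 5 and 3. These values lay in part under the floor of 3 reads, so a remaining level is not shown there. ADGRL2 (r = 0.962) was at 232, 124, 360 and 100. Opposite to LUM were HLF (r = -0.930), ZNF71 (r = -0.907) and KMT5C (r = -0.905).

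VAMP8 was matched by other genes low in TD5. TLR4, the lipopolysaccharide receptor (r = 0.979), was at means of 164, 155, 192 and 28.7 scaled reads in TPC1, D11, WB1 and TD5. DTX3 (r = 0.984) fell to 31.7 in TD5 from 186 in TPC1, and IGFBP7, a secreted insulin-like growth factor binding protein (r = 0.984), was at 487 in TD5 against 1206 in TPC1. None of these losses was as deep as the 38.1-fold one of VAMP8. BCAM (r = -0.936) and FXYD2 (r = -0.924), a sodium pump subunit at 52.3 scaled reads in TPC1 and 214 in TD5, ran the other way. FXYD6-FXYD2 (r = -0.924) overlaps FXYD2, and reads of the 2 models cannot be told apart.

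Among the 5 genes themselves, TGFBI and SLPI followed LUM less closely (r = 0.624 for both), and PRAME correlated with VAMP8 (r = 0.756). LUM correlated with VAMP8 (r = 0.686) and with PRAME (r = 0.543), and the other 4 pairs lay between -0.217 and -0.0779. The genes therefore did not move as 1 group.

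The genes around each of the 5 on the chromosome were read next, within 500 kb on either side, and tested by limma against TPC1. The 3 tested neighbours nearest to VAMP8 were not called in TD5. GGCX, the vitamin K-dependent carboxylase, lies 0.03 kb from the VAMP8 model on the other strand and had a log2 fold change of -0.06 in TD5 (limma adjusted p = 0.658). Distances are taken from the gene model. The main transcript of VAMP8 begins farther away, at 85577586, while GGCX ends at 85561532. MAT2A, the S-adenosylmethionine synthetase subunit 16.3 kb away, was at -0.01 (limma adjusted p = 0.957), and RNF181 on the other side, 13.7 kb away, was at 0.01 (limma adjusted p = 0.938). Of 43 neighbours 14 were tested, and 0 were called in TD5, with 5 of the 14 at an unadjusted p under 0.05. With 2.6% of all genes called in TD5, a count of 0 is near the background and is no result about these neighbours. D11 had 1 called neighbour and WB1 had 2, where 4.84% and 4.99% of all genes were called. TCF7L1, a transcription factor of the Wnt pathway 251 kb away, fell in D11 (log2 -0.94, SE 0.11, limma adjusted p = 1.5e-05) and WB1 (-0.84, limma adjusted p = 5.11e-05). In TD5 it was at -0.56 (limma adjusted p = 0.00282), short of the 1.5-fold threshold. ATOH8, 169 kb to the other side, fell in WB1 (-0.64, SE 0.18, limma adjusted p = 0.0136). Without TPC1 replicate 3 (-0.46), or without WB1 replicate 2 (-0.58), it was no longer called. In TD5 ATOH8 was at -0.57 (limma adjusted p = 0.0469), again short of 1.5-fold.

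Most genes around SLPI were silent or weak, but YWHAB and SDC4 were at means of 7713 and 4524 scaled reads in TPC1. Of the 53 neighbours of SLPI, many of them WAP-domain genes of the same cluster, 42 did not pass the filter. The highest value of these untested genes was 15 (WFDC3), and 22 neighbours were at 0 in all libraries. Of the 11 tested neighbours 0 were called lower in D11. Over all 16027 tested genes 312 were called lower in D11, so a count of 0 is near the background. PABPC1L, 293 kb away, rose in D11 (log2 0.77, SE 0.13, limma adjusted p = 0.000487) and in WB1 (0.77, limma adjusted p = 0.000457), the latter a clone in which SLPI was not lost. In TD5 0 of the 11 were called, where 2.6% of all genes were, with 5 at an unadjusted p under 0.05. SDC4, a cell surface proteoglycan and at 70.7 kb the nearest tested gene, was at -0.07 in D11 (limma adjusted p = 0.335).

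TGFBI, PRAME and LUM had few expressed neighbours. SMAD5, a mediator of bone morphogenetic protein signals 69.0 kb from TGFBI, was the only tested one of 29 and was higher rather than lower in D11, at a log2 fold change of 0.53 (limma adjusted p = 0.00407), short of the 1.5-fold threshold. Of 124 neighbours of PRAME, 95 were at 0 in all libraries and 4 were tested. Of these 4, 0 were called in any clone, with 3, 1 and 0 at an unadjusted p under 0.05 in D11, WB1 and TD5. With 4.84%, 4.99% and 2.6% of all genes called in these clones, 0 of 4 is near the background. ZNF280A, 27.4 kb away, was at 0.34 in D11, 0.46 in WB1 and 0.12 in TD5, while PRAME itself lay 2.03 above TPC1 in D11 and 3.69 above it in WB1, and in TPC1 1.38 above TD5, on the same scale. LUM had 9 neighbours and 0 that could be tested, with 6 at 0 throughout and the highest at 8 (LINC00615). DCN, KERA and EPYC, the leucine-rich proteoglycan genes of the same family and chromosome, were at 0 in all 12 libraries while LUM was read in TPC1 and WB1.

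The systems to which the 5 genes belong were read from 6 lists of 180 genes, of which 105 were tested. Around TGFBI, 28 of 30 TGF-beta and fasciclin genes were tested, and in D11 0 were higher and 3 lower, against 4.84% of all genes called. The list median was -0.04 in D11 beside 0.05 over all genes tested. WB1 had 2 higher and 3 lower (median 0.12 beside 0.06), and TD5 0 and 2 (0.02 beside 0.00). The 3 genes lower in D11 were TAGLN, an actin-binding gene of contractile cells (154 to 84.3 scaled reads, log2 -0.74, SE 0.17, limma adjusted p = 0.00378), the basement membrane collagen COL4A1 (6780 to 4147, log2 -0.71, SE 0.06, limma adjusted p = 8.32e-07) and the ligand TGFB2 (714 to 435, log2 -0.68, SE 0.13, limma adjusted p = 0.00158). Without TPC1 replicate 1 the TGFB2 calls were lost in D11 (-0.52) and TD5 (-0.54). TAGLN was also lower in WB1 (-1.06) and TD5 (-1.58), clones in which TGFBI was not lost. The receptors TGFBR1 (0.33) and TGFBR2 (0.36) and the signal carriers SMAD2 (0.27), SMAD3 (-0.08) and SMAD4 (0.32) were not called in D11. TGFBR1, TGFBR2, SMAD2 and SMAD4 were higher and short of the 1.5-fold threshold only (limma adjusted p = 0.02, 0.00513, 0.0124 and 0.0304). SMAD3 passed neither threshold (limma adjusted p = 0.391). POSTN, the closest relative of TGFBI, was at 0 in every library.

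The WAP-domain and serine protease inhibitor list, made around SLPI, was mostly silent, with 8 of 29 tested. In D11 0 of the 8 were called, with 4 at an unadjusted p under 0.05 and a median of -0.14 beside 0.05. With 4.84% of all genes called in D11, a count of 0 of 8 is near the background. PI3, which encodes elafin, the inhibitor most like SLPI, was at 0 in all libraries, and so were the target proteases ELANE and CTSG. WFDC2 did not exceed a mean of 0.667 in any line. SERPINA1, the alpha-1 antitrypsin gene, was higher in WB1 (1.04, limma adjusted p = 0.000363) and TD5 (0.88, limma adjusted p = 0.00268), and SERPINE2 in WB1 (0.60, limma adjusted p = 6.09e-05). The list medians were 0.06 in WB1 and 0.01 in TD5, and the latter became -0.00 with median-of-ratios scaling.

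For PRAME the other cancer-testis antigens were nearly absent. Of 30 such genes 1 passed the filter, SYCP3, a synaptonemal complex gene at means of 56.0 to 73.7 scaled reads, and 0 were called in any clone, also at an unadjusted p. The next highest was ACTL8, at 16.0 in WB1. MAGEA3 stayed at or below a mean of 2.33, and SSX1, SSX2 and SSX4 were at 0 in all libraries. In WB1, where PRAME was highest, 1 of 21 tested genes of the PRAME partner and retinoic acid list was called beside 4.99% of all genes, STRA6, the retinol transporter, which fell from 159 to 68.0 scaled reads (log2 -1.07, SE 0.18, limma adjusted p = 0.000478). In D11 0 of the 21 were called, where 4.84% of all genes were. An unadjusted p under 0.05 was reached by 13, and the share of all genes at that threshold was not counted. In TD5 1 was called, where 2.6% of all genes were: DHRS3, a retinaldehyde reductase (0.63, limma adjusted p = 0.00697). The ligase partners CUL2 (0.16), ELOB (-0.15), ELOC (0.08) and RBX1 (0.05), the receptor RARA (0.15) and the Polycomb subunit EZH2 (0.09) were not called in WB1. The medians were 0.05, 0.06 and 0.04 in D11, WB1 and TD5, and the first became -0.00 with median-of-ratios scaling.

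LUM was 1 of several expressed genes of its family, and TSKU, with means of 512 to 563 scaled reads in the 4 lines, lay above it in each. Of 23 small leucine-rich proteoglycan and keratan sulfate genes 9 were tested, and 0 were called higher in any clone. D11 had 1 gene called lower, WB1 2 and TD5 2, where 4.84%, 4.99% and 2.6% of all genes were called. The list medians were -0.25, -0.12 and -0.14 beside 0.05, 0.06 and 0.00 over all genes. BGN, the biglycan gene, was at means of 234, 23.0, 78.3 and 108 scaled reads in TPC1, D11, WB1 and TD5, and fell in D11 (-2.53, limma adjusted p = 2.3e-08), WB1 (-1.34, SE 0.17, limma adjusted p = 4.75e-05) and TD5 (-0.96, limma adjusted p = 0.00156). WB1, in which LUM was highest, was thus below TPC1 for BGN. CHST2, a carbohydrate sulfotransferase, fell from 550 to 253 in WB1 (SE 0.14 on the log2 scale, limma adjusted p = 9.51e-05) and to 293 in TD5 (limma adjusted p = 0.000981). FMOD and OMD were at 0 in every library.

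The SNARE list was read around VAMP8. Of 40 SNARE genes and Sec1/Munc18 partners 39 were tested, and in TD5 0 were called, with 14 at an unadjusted p under 0.05 and a median of 0.03 beside 0.00. With 2.6% of all genes called in TD5, a count of 0 is near the background and is no result about these genes. The partners of VAMP8 on late endosomes, STX7 (0.18), STX8 (0.20) and VTI1B (0.10), and those on autophagosomes, STX17 (-0.07) and SNAP29 (0.12), were not called in TD5. YKT6, itself an R-SNARE, was not called in TD5 either (-0.15). VAMP7, the other R-SNARE of late endosomes, was at means of 1740 scaled reads in TPC1 and 1958 in TD5 (0.15, limma adjusted p = 0.505), and VAMP3 at 2878 and 3170 (0.14, limma adjusted p = 0.17). SNAP23 and STX4, its partners at the plasma membrane, were at 0.10 and 0.03. In D11 0 genes were called, where 4.84% of all genes were, with 16 at an unadjusted p under 0.05 (median 0.11). In WB1, where 4.99% of all genes were called, 2 were higher (median 0.13). These were VAMP1 (0.88, limma adjusted p = 0.000218) and STX1A (0.61, limma adjusted p = 8.56e-05). The 0 counts in D11 and TD5 depend on the 1.5-fold minimum. For example, STX2 in D11 (0.47, limma adjusted p = 0.000478) and BET1L in TD5 (-0.32, limma adjusted p = 0.00338) passed the p threshold. Without that minimum 38 and 25 genes over all 6 lists were called in D11 and TD5, where 5329 and 1906 of all tested genes were. The number within the SNARE list was not counted.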

How the data were processed

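RNA was sequenced from 12 libraries, 3 for each of TPC1, D11, WB1 and TD5, grouped by their titles. The authors prepared stranded mRNA libraries, mapped paired-end reads to GRCh38 with STAR 2.5.3a, counted them on Ensembl release 90 genes with HTSeq 0.9.1 (versions per the submitters' processing notes) and normalized to 20000000 aligned reads. The deposited values are whole numbers after this scaling, and their unit is a score here, since scaled values are no read counts. They were expressed per 1000000 of each library's sum. The log2 of this value with a pseudocount of 1 entered limma 3.58.1 (R 4.3.3), with a mean-variance trend, all 12 libraries in the model and 1 mean for each line. Genes had to reach 1 per 1000000 in 3 or more libraries. The authors' method, edgeR quasi-likelihood, needs raw reads and was not used. Genes were called below 0.05 after Benjamini-Hochberg adjustment and at 1.5-fold or more. The labels do not say that replicates came from separate cultures, so p-values measure only the spread between libraries. The 5 genes, the lists and the tests were chosen with earlier results of these data known. Named genes were the 5 genes and DICER1, the 3 most and 3 least correlated genes of each, up to 4 called genes per list in the line farthest from the rest for that gene (taken among its highest or lowest line), every called gene within 500 kb, and list genes needed as examples. Genes were placed by Ensembl ID on GENCODE release 44, where 57532 of 58302 matched. Promoters came from RefSeq on GRCh38.p14. In simulated D11 against TPC1 data with 15995 genes, 95.9% of 98 genes changed 2-fold and 100% of 102 changed 4-fold were called, and 0 unchanged genes. The changed genes were drawn only from better expressed ones, and the same spread was set for every gene. These shares therefore do not cover weakly expressed genes or genes with a larger spread. The deviations of same-numbered libraries had correlations of 0.11, 0.17 and 0.35 for D11 and TD5. For D11 and WB1 they were -0.073, 0.11 and -0.19, and for WB1 and TD5 -0.068, -0.22 and -0.27. For TPC1 and the clones they lay from -0.19 to 0.095. Alternatives covered the filter, pseudocount, minimum fold, scaling, libraries in the fit, a replicate block and leaving out each library. Further steps ran in Python 3.11.15 (pandas 2.3.3, numpy 2.4.6, matplotlib 3.10.9, scipy 1.17.1).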

Additional observations from a re-analysis of the deposited data

Results flagged for a closer look

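For 3 of the 5 genes every library of 1 clone lay above and every library of another clone lay below those of TPC1. How many of all tested genes show this was not counted, so nothing is read from the count of 3. Whether the clones differed in these effects was not tested, because the genes were chosen from these values. For SLPI the mean was 474 scaled reads in WB1 and 13.3 in D11, with TPC1 between them. For PRAME it was 296 in D11 and 983 in WB1, above TPC1, and 10 in TD5, below it. For LUM it was 166 in WB1, above TPC1, and 0 in D11 and 0.667 in TD5, below it. In SLPI the separation of WB1 from TPC1 was 442 against 440 between the nearest libraries.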

How the results depend on the processing

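No called result changed direction under any alternative run, while the 2 list medians named above changed sign near 0 with median-of-ratios scaling. The number of calls depended most on the pseudocount and the minimum fold. With a pseudocount of 4, calls against TPC1 were 295 in D11, 339 in WB1 and 180 in TD5, neighbours called were 1 in D11 and 1 in WB1, and TPC1 was set apart in 29 genes, D11 in 43, WB1 in 16 and TD5 in 28. With a pseudocount of 0.25 TPC1 was set apart in 152 and WB1 in 96. Without a minimum fold, calls were 5329, 4956 and 1906 in D11, WB1 and TD5, genes of the 6 lists 38, 39 and 25, neighbours 11, 8 and 4, and TPC1 was set apart in 817 genes, D11 in 469, WB1 in 277 and TD5 in 265. The log2 difference of each gene between its farthest line and the nearest other was compressed by a larger pseudocount. With 0.25 and 4 it was -3.65 and -3.09 for TGFBI (main value -3.51), -4.31 and -2.23 for SLPI (-3.50) and -4.02 and -1.57 for VAMP8 (-2.89). With 4 it was 1.498 for PRAME, and 0.69 for LUM (1.01). A pseudocount of 4 shrinks every such difference by its construction.

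Leaving out 1 library at a time gave 664 to 921 calls in D11, 672 to 920 in WB1 and 341 to 589 in TD5, 4 to 6, 10 to 14 and 5 to 9 list genes, 2 to 3, 2 to 3 and 0 to 2 neighbours, and 60 to 133, 114 to 137, 44 to 64 and 52 to 83 genes setting TPC1, D11, WB1 and TD5 apart. The 0 neighbours called in TD5 became 2 without TPC1 replicate 2 (TCF7L1 at -0.67 and ATOH8 at -0.81) and 1 without TD5 replicate 2 or 3, and the 92 genes of TPC1 became 60 without TPC1 replicate 3. The log2 difference of TGFBI ranged from -3.58 to -3.45, of SLPI from -3.56 to -3.45, of PRAME from 1.63 to 1.71, of LUM from 0.84 to 1.11 and of VAMP8 from -3.05 to -2.79. LUM took 0.84 without WB1 replicate 2. TAGLN in D11 (-0.51), PABPC1L in D11 and WB1 (0.55 in both) and ATOH8 in WB1 (-0.40) were lost with a pseudocount of 4.

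TPC1 and the clones share replicate numbers, but their same-numbered libraries did not deviate together (correlations from -0.19 to 0.095). With the replicate number as a block, 772, 799 and 409 genes were called in D11, WB1 and TD5, 4, 12 and 6 list genes, and 2, 3 and 0 neighbours, and it changed no call of a named gene. SLPI in D11, VAMP8 and PRAME in TD5 and LUM in both rest on 0 to 31 reads in a line, so depth limits how low their level can be set.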
